A study of Caenorhabditis elegans with 48 samples.

Results

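The genes described here are the cuticle collagen genes of Caenorhabditis elegans: every gene whose symbol starts with col-, together with bli-1, bli-2, dpy-2, dpy-3, dpy-4, dpy-5, dpy-7, dpy-8, dpy-9, dpy-10, dpy-13, dpy-14, dpy-17, rol-6, rol-8, sqt-1, sqt-2 and sqt-3. Of 174 such genes in the gene name table, 126 were listed in at least 1 of the 4 deposited expression tables, out of 13129 genes listed in all. They were chosen by symbol among the listed genes, with earlier results of these data known. In 102 of them a value was given for every strain.

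The cuticle is the exoskeleton of the worm. Its collagens are short proteins made as procollagens by the epidermis, hydroxylated and trimmed by processing enzymes, secreted and cross-linked. A new cuticle is built before each larval molt, when many of these genes are transcribed in a brief pulse, and different collagens serve the larval and the adult cuticle. The dpy furrow collagens (dpy-2, dpy-3, dpy-7, dpy-8, dpy-9 and dpy-10) form the circumferential furrows, BLI-1 and BLI-2 build the struts that join the layers of the adult cuticle, and col-19 is a widely used marker of the adult epidermis.

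Polyadenylated RNA of young adult worms was sequenced in 48 libraries, 3 in each of 16 groups. JTL611 carries hsf-1::aid::gfp, which fuses the heat shock transcription factor HSF-1 to an auxin-inducible degron and GFP, and the insertion ieSi57, which expresses the plant F-box protein TIR1 with mRuby from the eft-3 promoter in the soma; CA1200 carries ieSi57 with untagged HSF-1. JTL621 carries hsf-1::aid::gfp and the insertion ieSi38, which expresses TIR1 with mRuby from the sun-1 promoter in the germline; CA1199 carries ieSi38 with untagged HSF-1. All 4 strains have the unc-119(ed3) mutation, with Cbr-unc-119(+) in the TIR1 insertion, and TIR1 lets auxin trigger destruction of the degron-tagged protein. Worms grown for 51 h from synchronized L1 larvae spent 2 h on auxin plates or on ethanol (EtOH) plates, and were then heat shocked at 34 °C for 30 min in a water bath or collected without heat shock. The unheated groups are called 20 °C here.

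Libraries held between 9000611 and 24025791 reads on listed genes (median 16986626). Replicate 2 of JTL621 on auxin with heat shock stood apart: it had the fewest reads, and 34.5% of them lay on ribosomal RNA genes, against at most 18.5% in any other library. The degron acts on the HSF-1 protein, so the hsf-1 transcript is no check of depletion. The transcript of hsp-16.2, a small heat shock protein gene that HSF-1 controls, was at 0.633 to 0.706 CPM (depth-scaled counts, as normalised by the authors within each strain's table) in JTL611 on auxin after heat shock, against 138 to 285 CPM in JTL611 on ethanol after heat shock. Epidermal marker transcripts were present in every library; of 7 such genes, 5 were tested in CA1200 and 6 in each other strain.

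In these young adults a small number of collagens supplied most of the collagen RNA. Levels between genes were compared per length, as CPM per kb of annotated exon averaged over the strains. The 6 highest were col-140 at 3580, col-124 at 3417, col-20 at 3153, col-119 at 3013, col-122 at 3004 and col-139 at 2840 CPM per kb. The adult marker col-19 came next at 2387 CPM per kb. The 16 genes above 1000 CPM per kb made up 76.5% of the summed CPM of the collagens, whereas the 52 genes below 10 CPM per kb made up 0.345%. The adult gene col-7 reached 143 CPM per kb.

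Collagens known for their mutant shapes were low. Of the furrow collagens, dpy-10 was at 1.47, dpy-2 at 1.03 and dpy-9 at 0.938 CPM per kb, and dpy-3, dpy-7 and dpy-8 were not listed. The strut collagens bli-1 and bli-2 were at 1.27 and 1.39 CPM per kb. Dumpy and roller genes without a furrow role, which also set body length and cuticle symmetry, ranged from dpy-14 at 0.611 to dpy-5 at 14.2 CPM per kb, with sqt-3 at 5.38 and dpy-17 at 4.19 CPM per kb. The furrow genes that were listed were also even across libraries: dpy-10 had 0.959, 2.23 and 4.17 CPM as its lowest, median and highest value over 48 libraries, and dpy-2 had 0.814, 1.32 and 2.32 CPM.

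All collagens together took 4.65% to 6.89% of the reads outside ribosomal RNA genes (median 5.5%). In JTL611 on auxin this share was 5.42% to 5.7% after heat shock, against 5.73% to 6.12% at 20 °C. CA1200 gave 4.76% to 5.4% after heat shock and 5.58% to 5.91% at 20 °C on auxin, and 5.19% to 5.34% against 5.65% to 5.98% on ethanol. The heated libraries lay below the unheated ones without overlap in these 3 comparisons and in JTL621 on ethanol and CA1199 on auxin. The groups overlapped in JTL611 on ethanol, in CA1199 on ethanol and in JTL621 on auxin, where the library with 34.5% ribosomal reads gave the highest share, 6.74%, and the other heated libraries gave 4.94% and 5.2%, below all unheated ones at 5.32% to 5.85%. In whole worms, fewer cells of a type and less RNA per cell cannot be told apart.

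**Figure D1:**
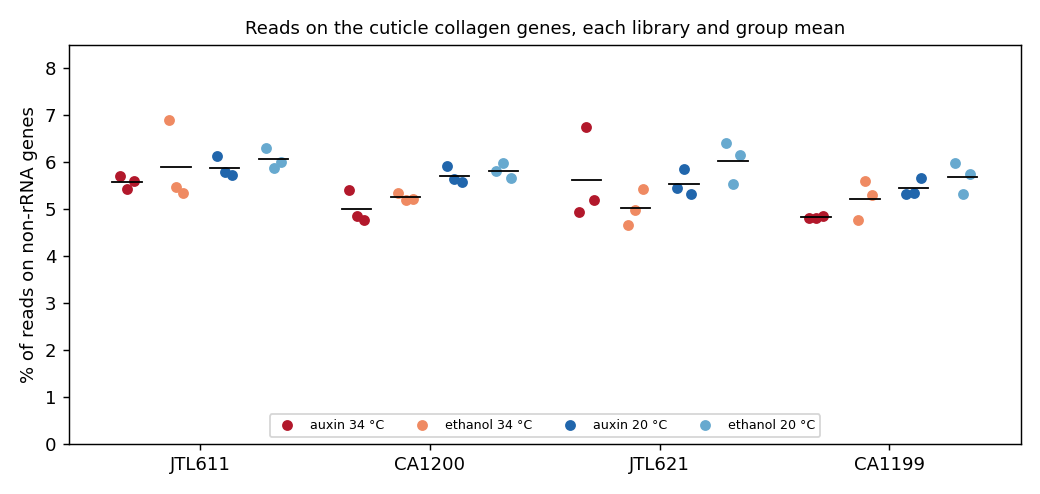
Share of reads on the cuticle collagen genes, in percent of reads on genes other than ribosomal RNA, for each library (points) and group mean (line), by strain, plate and temperature. The shares lie between 4.65% and 6.89%, and the high heated point of JTL621 on auxin, at 6.74%, is the library with 34.5% ribosomal reads.

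Heat shock was tested in each strain on each plate. Genes averaging 1 CPM or more across a strain's 12 libraries entered a limma fit on log2(CPM + 1), which covered 114 collagens in JTL611, 97 in CA1200, 118 in JTL621 and 111 in CA1199, and a gene was called at a Benjamini-Hochberg adjusted p under 0.05 over all genes tested. This scale understates the fold change of low genes. The labels number the replicates without saying that they came from separate cultures, so the p-values measure only the spread between these samples. The ethanol and the auxin comparisons of a strain share no library.

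A pair of collagens, bli-1 and dpy-17, rose with heat in nearly every comparison. On ethanol plates 2 collagens were called higher in JTL611 (2.31% of all genes tested), 4 in CA1200 (5.73%), 2 in JTL621 (2.54%) and 1 in CA1199 (3.94%). On auxin plates 2 were called higher in JTL611 (2.24% of all genes), 3 in CA1200 (9.57%), 3 in JTL621 (6.22%) and 2 in CA1199 (3.83%). In this fit the shares of the tested collagens were 0.901% to 4.12%, below the share of all genes in all 8 comparisons. A fit with the replicates as blocks, given below, changed this in CA1200 on ethanol. What recurred was the pair: dpy-17 was called in all 8 comparisons and bli-1 in 7.

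The strut collagen bli-1 had 7.38, 6.01 and 6.46 CPM in JTL611 on auxin after heat shock, against 1.02, 0.886 and 1.07 CPM at 20 °C. On ethanol the JTL611 values were 5.45, 6.19 and 7.28 CPM after heat shock and 1.13, 3.75 and 1.75 CPM at 20 °C. The heated libraries lay above all unheated ones on both plates, and the replicate at 3.75 CPM made the ethanol difference the smaller. On the log2 scale bli-1 rose by 1.93 (SE 0.24, limma adjusted p = 3.3e-04) on auxin and by 1.26 (SE 0.24, limma adjusted p = 0.0073) on ethanol. A fit of only the 6 libraries compared ended the ethanol call (limma adjusted p = 0.0906).

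In CA1200, with untagged HSF-1, bli-1 had 4.78, 4.29 and 6.29 CPM on auxin after heat shock, against 0.86, 0.585 and 0.415 CPM at 20 °C. On ethanol it had 5.27, 4.89 and 5.83 CPM after heat shock, against 0.589, 0.746 and 0.712 CPM at 20 °C. Every heated library was several times above every unheated one. The log2 fold change was 1.91 (SE 0.15) on auxin and 1.91 (SE 0.15) on ethanol, with limma adjusted p of 1.3e-06 and 1.5e-06.

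In JTL621, bli-1 had 7.65, 5.9 and 8.85 CPM on auxin after heat shock against 0.981, 0.792 and 0.582 CPM at 20 °C, a log2 fold change of 2.24 (SE 0.24, adjusted p = 5.2e-05). On ethanol it had 6.39, 8.67 and 10.4 CPM after heat shock against 0.718, 0.679 and 2.02 CPM at 20 °C, a log2 fold change of 2.18 (SE 0.24). In CA1199 the values on auxin were 6.87, 5.59 and 4.84 CPM after heat shock against 0.614, 0.8 and 2.34 CPM at 20 °C, a log2 fold change of 1.65 (SE 0.38, adjusted p = 0.0096). These groups did not overlap. On ethanol CA1199 had 7.68, 3.13 and 5.79 CPM after heat shock and 5.48, 2.21 and 1.03 CPM at 20 °C; these groups overlapped, because 1 unheated library was high, and the difference was not called (adjusted p = 0.15).

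The collagen dpy-17, a body-shape gene whose product acts in the secretion of the collagen SQT-3, had 13.5, 11.4 and 12.5 CPM in JTL611 on auxin after heat shock, against 2.36, 2.14 and 2.36 CPM at 20 °C. On ethanol it had 12.4, 9.77 and 9.54 CPM after heat shock, against 2.04, 1.29 and 1.59 CPM at 20 °C. The heated libraries were all above the unheated ones, by 2.03 (SE 0.14) on auxin and 2.13 (SE 0.14) on ethanol on the log2 scale. In CA1200 it had 7.26, 5.51 and 4.53 CPM on auxin after heat shock against 2.15, 1.97 and 1.3 CPM at 20 °C, and 7.69, 4.52 and 6.51 CPM on ethanol after heat shock against 1.18, 1.97 and 1.75 CPM at 20 °C. Those log2 fold changes were 1.26 (SE 0.20) on auxin and 1.45 (SE 0.20) on ethanol.

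In JTL621, dpy-17 had 7.78, 11 and 7.77 CPM on auxin after heat shock against 1.24, 1.11 and 2.44 CPM at 20 °C, and 7.41, 5.29 and 8.09 CPM on ethanol after heat shock against 1.27, 1.61 and 1.49 CPM at 20 °C. In CA1199 it had 4.6, 5.06 and 5.58 CPM on auxin after heat shock against 1.04, 1.53 and 2.28 CPM at 20 °C, and 5.99, 4.55 and 5.0 CPM on ethanol after heat shock against 0.731, 1.36 and 2.07 CPM at 20 °C. No heated library overlapped an unheated one in any strain. The log2 fold changes were 1.94 and 1.67 (SE 0.22) in JTL621 and 1.24 and 1.4 (SE 0.21) in CA1199, on auxin and on ethanol in that order, and none of the 8 dpy-17 calls was lost under any alternative run. SQT-3's own gene, sqt-3, was not called in any comparison.

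**Figure D2:**
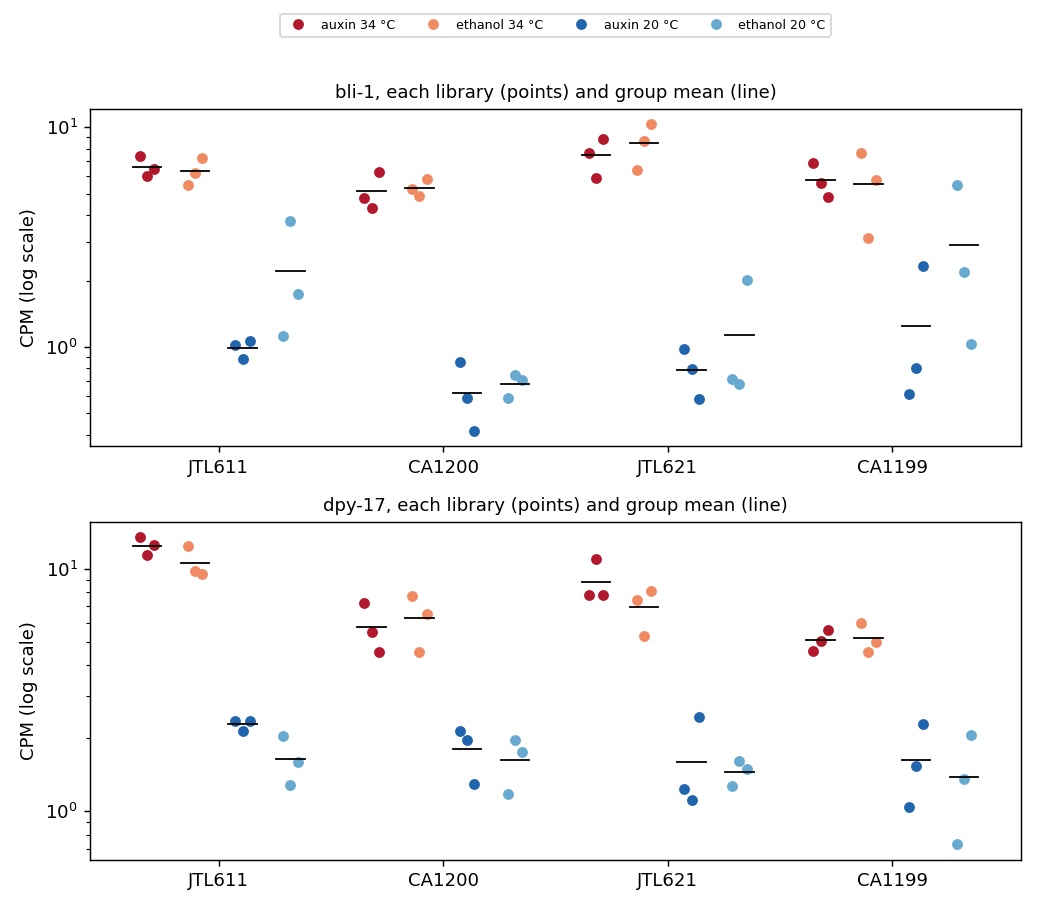
Levels of bli-1 and dpy-17 in CPM on a log axis, each library as a point and the group mean as a line, by strain, plate and temperature. Heated libraries lie above unheated ones except for bli-1 in CA1199 on ethanol, where an unheated library at 5.48 CPM overlaps heated ones.

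Both genes were thus called higher after heat in JTL611 on auxin, where hsp-16.2 stayed below 1 CPM. By the limma fit, the difference of the heat response on ethanol between JTL611 and CA1200, and between JTL621 and CA1199, was not called for any collagen, nor was the interaction of auxin and heat in JTL611 or JTL621; at an unadjusted p under 0.05 there were 3 and 1 for the differences and 2 and 2 for the interactions. The first of these differences was called lower for 0.0764% of all genes, the JTL611 interaction for 0.2%, and the other 2 terms for none. For bli-1 the interaction estimate in JTL611 was 0.67 (95% interval -0.06 to 1.4) on the log2 scale, and for dpy-17 it was -0.10 (-0.54 to 0.34). Auxin compared with ethanol after heat shock in JTL611 gave 0.06 (-0.45 to 0.58) for bli-1 and 0.22 (-0.09 to 0.53) for dpy-17.

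In the annotation of WBcel235, bli-1 lies on chromosome II at bases 10708960 to 10712156, plus strand, within the span of dph-2, a gene on the other strand. Its start is 672 bases past the end of col-80, a collagen on the same strand that averaged 2337 CPM in JTL611. The gene dpy-17 lies on chromosome III at bases 5107330 to 5108492, plus strand, 309 bases past the end of F54D8.6, which averaged 99.5 CPM in JTL611. Neither upstream gene moved by more than 0.19 on the log2 scale with heat on ethanol in any strain. A listed gene ends within 1 kb upstream on the same strand for 24.9% of all listed genes and for 25 of 126 collagens. Counts per gene do not show where in a gene the reads lie, and the part of reads running in from a neighbour was not tested.

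A further pair, singled out after their values were seen, was col-152 and the body-shape gene dpy-14. Both were below a mean of 1 CPM in JTL611 and JTL621 and had no value in the other strains. Fitted without the filter, both were called higher with heat on both plates, along with 2.46% to 6.59% of all genes called higher in those fits. Their listing may rest on the heated libraries alone, so these calls describe the values and are no independent test. In JTL611 dpy-14 had 1.99, 1.2 and 0.85 CPM on auxin after heat shock against 0.161, 0 and 0.169 CPM at 20 °C, and 2.02, 0.834 and 1.24 CPM on ethanol after heat shock against 0.141, 0.103 and 0.106 CPM at 20 °C. In JTL621 col-152 had 1.13, 1.12 and 1.52 CPM on auxin after heat shock against 0.103, 0.158 and 0.0582 CPM at 20 °C. The groups did not overlap, and no unheated value of either gene in the 2 strains exceeded 0.32 CPM. Both genes also start close behind a listed gene on the same strand, dpy-14 245 bases past dpf-3 and col-152 132 bases past best-14.

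In CA1200 alone, col-97 and col-88 were also called higher. By spread between replicates, among collagens averaging 5 CPM or more, col-88 ranked 1 and col-97 ranked 19. The gene col-97 had 26.1, 14.6 and 14.5 CPM on auxin after heat shock against 2.46, 1.91 and 2.02 CPM at 20 °C, and 29, 17 and 12.5 CPM on ethanol after heat shock against 5.14, 0.61 and 1.36 CPM at 20 °C. These groups did not overlap, and the log2 fold change was 2.58 (SE 0.40, adjusted p = 7.6e-04) on auxin and 2.76 (SE 0.40, adjusted p = 5.2e-04) on ethanol. Both calls were kept under all 13 alternatives. In JTL611 on ethanol col-97 ranged from 7.54 to 55.9 CPM after heat shock and from 0.422 to 40.2 CPM at 20 °C, so the groups overlapped. The difference of its heat response between JTL611 and CA1200 was not called. The gene col-88 was called on ethanol only, at 15.6 ± 9.59 CPM after heat shock and 2.2 ± 2.71 CPM at 20 °C (SD, n = 3), and 2 of 13 alternatives ended that call.

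In JTL621 on auxin, col-39 was called higher: it had 345, 550 and 339 CPM after heat shock against 159, 329 and 175 CPM at 20 °C, a log2 fold change of 0.93 (SE 0.27, adjusted p = 0.033). The heated libraries were all above the unheated ones, the nearest by a narrow margin, and the highest was the library with 34.5% ribosomal reads. Without that library, or without unheated replicate 1 or 3, col-39 was no longer called.

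Heat-lowered collagens changed less. On ethanol 0 collagens were called lower in JTL611, where 4.17% of all genes were, 1 in CA1200 (7.51%), 2 in JTL621 (7.43%) and 4 in CA1199 (14.4%). On auxin 8 were called lower in JTL611 (5.4% of all genes), 5 in CA1200 (9.86%), 2 in JTL621 (11.3%) and 5 in CA1199 (12.5%). In this fit, without a replicate block, the share among tested collagens exceeded that of all genes only in JTL611 on auxin, at 7.02%. Where replicate numbers paired the libraries, a fit with the replicate as a block called 10 higher and 11 lower in CA1200 on ethanol, where 7.66% of all genes were higher and 10.1% lower. It called 3 higher and 14 lower in CA1200 on auxin (12.5% and 13.5% of all genes), 2 higher and 4 lower in JTL611 on ethanol (3.31% and 7.19%), and 2 higher and 10 lower in CA1199 on auxin (4% and 13.2%). With the block, the share among the 97 collagens of CA1200 exceeded that of all genes in both directions on ethanol. On auxin it did so for lower genes only. The collagen share lay below that of all genes in the rest of these blocked counts. Single libraries moved several counts of called collagens. In JTL611 on auxin the 10 became 4 without unheated replicate 3 and 5 without unheated replicate 2 or heated replicate 1 or 2, where 3.72% to 4.6% of all genes were called, and on ethanol the 2 became 5 without heated replicate 1 (7.54% of all genes). In CA1200 on auxin the 8 became 14 without heated replicate 3 (15.1% of all genes), 3 without unheated replicate 3 (11%), and 4 without heated replicate 2 (13.1%) or unheated replicate 1 (11.6%). In CA1200 on ethanol the 5 became 3 without heated replicate 1 (9.98% of all genes) or unheated replicate 2 (9.41%). In CA1199 on auxin the 7 became 13 without unheated replicate 2 (12.8%), and in JTL621 on ethanol the 4 became 2 without heated replicate 1 (5.02%) or 2 (5.33%). Summed epidermal marker levels were also lower after heat, at 224 to 249 CPM against 281 to 341 CPM in JTL611 on auxin, and without overlap in all comparisons but CA1200 on ethanol. Markers of other cell types moved as well: summed intestine markers were lower after heat without overlap in all 8 comparisons, at 556 to 647 CPM against 843 to 1025 CPM in JTL611 on auxin. Summed body wall muscle markers were higher without overlap in CA1200, JTL621 and CA1199 on both plates and overlapped in JTL611. The part of these shifts in the collagen values was not tested.

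The gene col-153 was called lower in 5 comparisons. It had 9.44, 8.99 and 9.5 CPM in CA1199 on auxin after heat shock against 17.2, 17.9 and 23 CPM at 20 °C, and 9.91, 9.22 and 12.5 CPM in JTL621 on ethanol after heat shock against 20.9, 19.3 and 17.6 CPM at 20 °C. The groups were clearly apart in both. Its called log2 fold changes ran from -0.97 (SE 0.19) in CA1199 on auxin to -0.49 (SE 0.12) in CA1200 on auxin. In JTL611 it was not called on either plate. Of 13 alternatives, 1 ended its call in CA1200 on auxin, 3 in JTL621 on ethanol and 4 in JTL621 on auxin, and none in CA1199.

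The gene col-166 was lower in JTL611, CA1200 and CA1199 on auxin and in CA1199 on ethanol. In CA1199 it had 82.4, 69.2 and 76.6 CPM on auxin after heat shock against 141, 99.8 and 127 CPM at 20 °C, and 81.7, 90.2 and 89.5 CPM on ethanol after heat shock against 125, 131 and 125 CPM at 20 °C. The heated and unheated libraries did not overlap in CA1199, but they did in CA1200 on auxin. Called log2 fold changes ranged from -0.74 (SE 0.18) to -0.47 (SE 0.15). The CA1200 call was lost under 5 of 13 alternatives, the JTL611 call under 4 and the CA1199 calls under none.

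The largest called fall was that of col-155 in JTL611 on auxin, with 22.3, 29.2 and 33.8 CPM after heat shock against 56.6, 79.0 and 68.9 CPM at 20 °C. The heated libraries were all below the unheated ones, at a log2 fold change of -1.24 (SE 0.21, adjusted p = 0.0035). In CA1200 col-155 fell by 0.44 on auxin and by 0.46 on ethanol on the log2 scale, calls that 4 and 5 of 13 alternatives ended. On ethanol in JTL611 it had 51.4, 68.5 and 40.5 CPM after heat shock against 58.3, 85.2 and 82.0 CPM at 20 °C, which overlapped and was not called. The gene col-96 fell in JTL611 on auxin to 39.4 ± 2.01 CPM, against 61.1 ± 2.02 CPM at 20 °C (SD, n = 3), a log2 fold change of -0.62 (SE 0.09, adjusted p = 9.1e-04). It kept its call under every alternative run.

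Among the other called falls, col-34 in CA1199 was the steepest: 10.3 ± 3.07 CPM after heat shock and 21.5 ± 2.58 CPM at 20 °C on auxin, and 13 ± 0.225 CPM against 23.3 ± 5.48 CPM on ethanol (SD, n = 3). The genes col-118 (CA1200 and CA1199 on auxin, CA1199 on ethanol), col-81 (CA1200 and CA1199 on auxin) and col-143 (JTL621 on both plates) fell by 0.34 to 0.63 on the log2 scale. Of 13 alternatives, 7 ended the col-143 call on ethanol and 8 that on auxin, 6 and 5 ended those of col-81 in CA1200 and CA1199, and 3 or 4 each of those of col-118. In JTL611 on auxin col-159, col-167, col-168, col-3 and col-117 fell by 0.63 to 0.95, and 8 of 13 alternatives ended the call of col-167, 7 that of col-168, 4 each those of col-3 and col-117 and 1 that of col-159. The annotated span of col-159 overlaps that of col-160 by 1196 bases on the same strand, so their reads may be shared. The neighbours col-3 and col-117 differed by at most 3.48% in reads in any library, so their counts may not be separate.

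**Figure D3:**
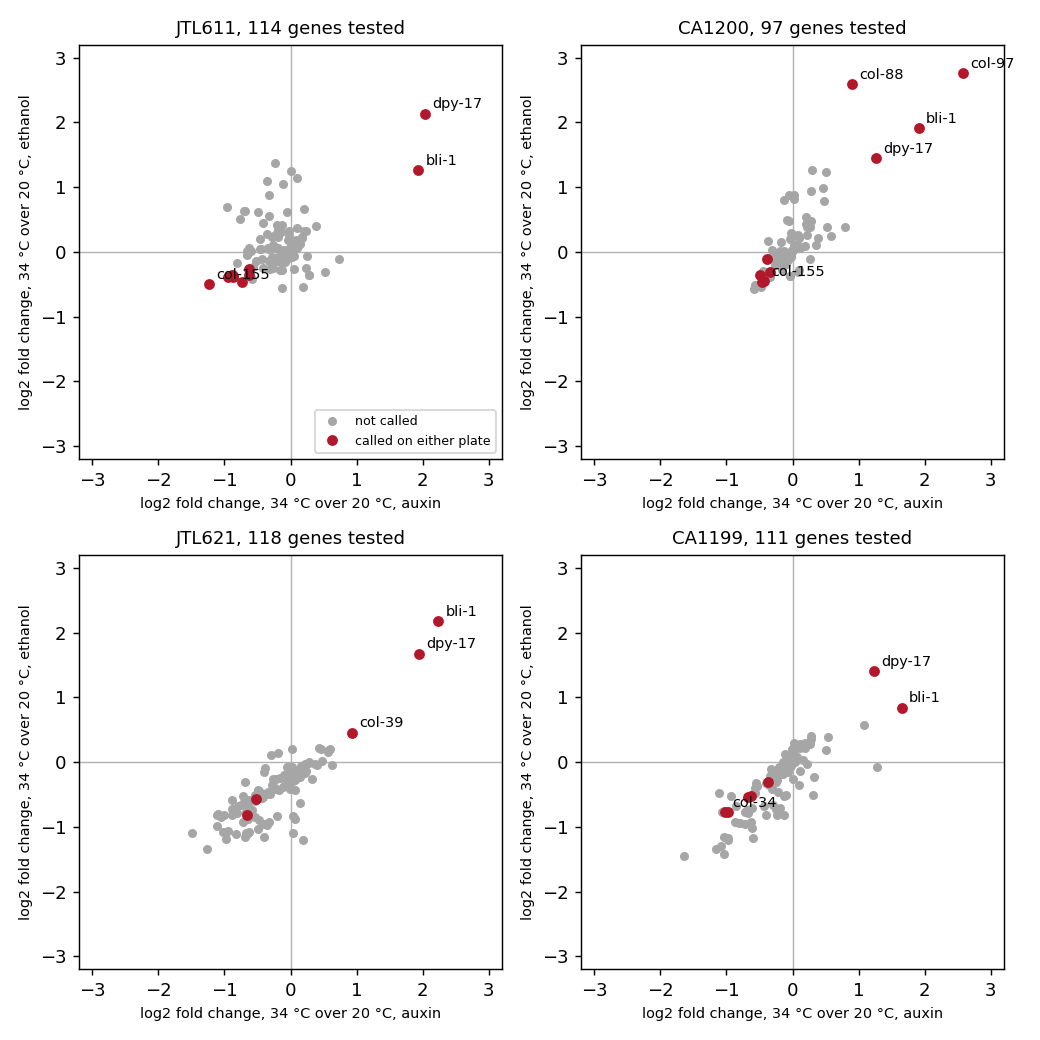
Log2 fold change of each tested collagen, heat shock over 20 °C, on auxin plates (horizontal) and ethanol plates (vertical), in each strain; red points were called on at least 1 plate. The genes bli-1 and dpy-17 stand at the upper right in each strain. On ethanol 106 of 118 collagens lie below 0 in JTL621 (49% of all genes) and 52 of 114 in JTL611 (50.7%).

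In 7 of the 8 heat comparisons more than 50% of the tested collagens had a log2 fold change below 0. Of all genes tested, 48% to 51.2% were below 0. In CA1200 on ethanol, 1 of the 7, the collagen share of 54.6% was near the 51.1% of all genes. The median log2 fold change of the tested collagens on ethanol was 0.02 in JTL611, -0.03 in CA1200, -0.43 in JTL621 and -0.23 in CA1199, while the median of all genes tested lay between -0.01 and 0.01. Below 0 were 52 of 114 collagens in JTL611, 53 of 97 in CA1200, 106 of 118 in JTL621 and 82 of 111 in CA1199. On auxin the medians were -0.16 in JTL611, -0.07 in CA1200, -0.25 in JTL621 and -0.22 in CA1199, with 83 of 114, 63 of 97, 77 of 118 and 81 of 111 below 0 in that order of strains. No test compared these medians between strains. Single libraries moved them: in JTL611 on ethanol the median was -0.38 without unheated replicate 1 and 0.20 without unheated replicate 2, and on auxin it was -0.46 without unheated replicate 1 and -0.03 without heated replicate 1 or unheated replicate 2. With each replicate left out on ethanol it lay between -0.11 and -0.01 in CA1200, between -0.60 and -0.26 in JTL621 and between -0.30 and -0.16 in CA1199. On auxin in CA1199 it was -0.39 without unheated replicate 2 and -0.12 without unheated replicate 1. The JTL621 median on auxin changed sign, to 0.13, without replicate 2 of its unheated auxin group, and was -0.55 without replicate 1 of that group. The 5 collagens called became 30, of which 28 were lower, without that replicate 1, where 8.32% of all genes were called higher and 14% lower, and 3 without unheated replicate 3 or heated replicate 3. In CA1200 the median on auxin was 0.03 without replicate 2 of the heated auxin group and -0.20 without its replicate 1.

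Between auxin and ethanol plates, no tested collagen was called in the limma fit described above. After heat shock, where the comparison asks what loss of HSF-1 does in JTL611 and JTL621, the limma fit called 0 of the tested collagens in each of the 4 strains, and at 20 °C it also called 0; the unadjusted counts at 20 °C were 3 in JTL611, 1 in CA1200, 1 in JTL621 and 2 in CA1199. There 0.0833% of all genes were called higher and 0.00833% lower in JTL611, and 0.177%, 0.172% and 0.213% higher in CA1200, JTL621 and CA1199. Across all genes tested, 0.0916% were called higher and 0.233% lower after heat shock in JTL611, 0.0589% higher in CA1200, 0.172% higher in JTL621 and 0.246% higher in CA1199. At an unadjusted p under 0.05 there were 13 collagens after heat shock in JTL611, 1 in CA1200, 4 in JTL621 and 7 in CA1199. These comparisons share their heated libraries with the heat shock comparisons above.

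In JTL611, as in the other strains, the collagens were nevertheless mostly lower on auxin after heat shock. Of 114 tested, 98 had a log2 fold change below 0, with a median of -0.49 against -0.01 over all genes, and at 20 °C 87 of 114 were below 0 with a median of -0.10, which was -0.50 without replicate 1 of the unheated ethanol group and -0.02 without replicate 1 of the unheated auxin group. The heated median was -0.19 without replicate 2 of JTL611 on ethanol after heat shock, the library in which the variable collagens described below were highest in that group, and -0.27 without replicate 1 of the heated auxin group, in which they were lowest. At the other end it was -0.73 without replicate 3 of the heated auxin group and -0.62 without replicate 1 of the heated ethanol group. In the difference between JTL611 and CA1200 the median was -0.46 and no collagen was called by limma, where 0.229% of all genes were called lower and 5 collagens had an unadjusted p under 0.05. That median was -0.14 without replicate 1 of the heated auxin group of JTL611 and -0.17 without replicate 2 of its heated ethanol group. It was -0.62 without replicate 3 of the heated auxin group of JTL611 and -0.65 without replicate 2 of that of CA1200. In JTL621 the median was -0.16 after heat shock and -0.31 at 20 °C, in CA1199 it was -0.19 and -0.21, and in CA1200 it was -0.06 and 0.00. Below 0 after heat shock were 76 of 118 collagens in JTL621, 90 of 111 in CA1199 and 75 of 97 in CA1200. At 20 °C these counts were 107, 88 and 48 in that order. The JTL621 median after heat shock was -0.39 without heated auxin replicate 2 and 0.03 without heated ethanol replicate 3, and at 20 °C it was -0.75 without auxin replicate 2 and 0.04 without auxin replicate 1. The CA1199 median after heat shock was -0.38 without auxin replicate 1 and -0.08 without auxin replicate 3, and at 20 °C it was -0.35 without auxin replicate 1 and -0.003 without auxin replicate 2. With each replicate left out the CA1200 median lay between -0.15 and 0.10 after heat shock and between -0.04 and 0.04 at 20 °C.

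For auxin against ethanol in heated worms, the authors' deposited table listed 7 collagens lower and 1 higher at FDR under 0.05 in JTL611, where 0.498% and 0.324% of its genes were, and 1 higher in JTL621 (0.328%). In that table the 7 lower ones were col-155 (log2 fold change -0.91), col-96 (-0.48), col-144 (-0.85), col-154 (-0.91), col-10 (-0.74), col-157 (-1.28) and col-180 (-0.71). It listed none in CA1200, where 0.418% of genes were higher and 0.0161% lower, or in CA1199, where 0.432% were higher and 0.0392% lower. The table was made from the same libraries, so it is no separate measurement. In the limma fit col-155 had 22.3, 29.2 and 33.8 CPM in JTL611 on auxin against 51.4, 68.5 and 40.5 CPM on ethanol after heat shock, which did not overlap, but was not called.

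The collagen that the authors' deposited table listed as higher on auxin, in both degron strains, was col-36. It lies on chromosome II at bases 7167511 to 7168812, minus strand, and overlaps the annotated span of dyf-13 by 20 bases. In JTL611 after heat shock it had 1.48, 1.58 and 1.47 CPM on auxin, against 0.0673, 0.119 and 0.113 CPM on ethanol. At 20 °C it was at 0 in all 3 JTL611 libraries on auxin, against 0, 0 and 0.0531 CPM on ethanol. Only the heated auxin libraries rose above the level of a few reads, and they lay close together.

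In JTL621 the pattern of col-36 was the same: 2.19, 2.71 and 1.72 CPM on auxin after heat shock, against 0.239, 0.246 and 0.241 CPM on ethanol. At 20 °C it was at 0 in all 3 libraries on auxin, against 0, 0.0424 and 0.0533 CPM on ethanol. In reads, the heated auxin libraries of JTL611 held 74 in all and the heated ethanol ones 5, a ratio per depth of 14.9 (exact 95% interval 6.11 to 47.3, counting error only). In JTL621 there were 85 and 13 reads, a ratio of 8.44 (4.68 to 16.5). Against the unheated auxin libraries, all at 0, the heated auxin level was at least 8.23-fold higher in JTL611 and at least 11.7-fold higher in JTL621, taking 3 reads per library as the floor.

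The mean of col-36 lay under 1 CPM, so it did not enter the limma fit above, and it is described here after its values were seen. Only its heated auxin libraries rose above a few reads, so its listing in both strains may rest on that group. The p-values given for it therefore describe the values and are no independent test. Without the filter it was called for auxin after heat shock in JTL611 (log2 fold change 1.19, SE 0.11, adjusted p = 6.1e-05) and in JTL621 (1.36, SE 0.14, adjusted p = 2.9e-04), where 0.111% and 0.18% of all genes were called higher. It was also called for heat shock on auxin in both strains, but not for heat shock on ethanol (adjusted p = 0.64 in JTL611 and 0.27 in JTL621). The authors' deposited table gave a log2 fold change of 3.81 in JTL611 and 3.11 in JTL621. No value of col-36 was given for CA1200 or CA1199, so a difference from the strains with untagged HSF-1 was not analysed here. In JTL621 TIR1 is expressed from a germline promoter, and hsp-16.2 after heat shock was at 308 to 638 CPM on auxin against 344 to 436 CPM on ethanol.

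**Figure D4:**
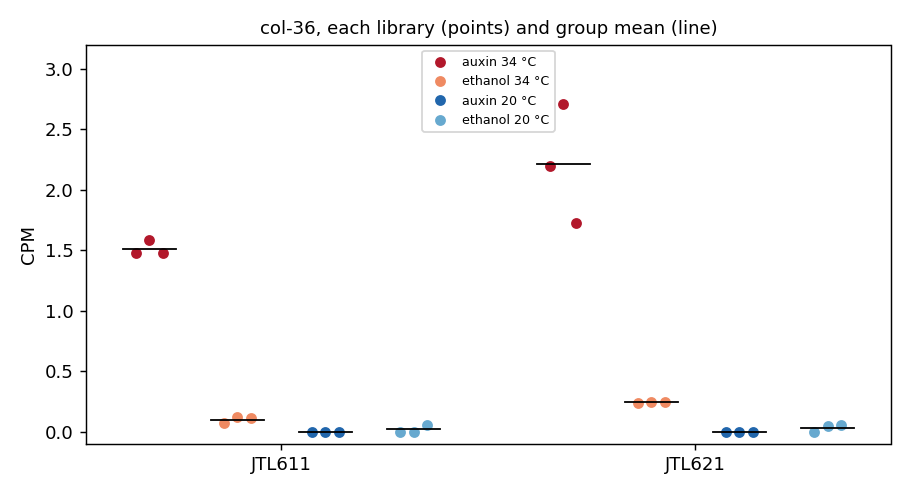
Level of col-36 in CPM in each library (points) with the group mean (line) in JTL611 and JTL621, by plate and temperature. Only the auxin libraries after heat shock lie above 1 CPM, at 1.47 to 2.71 CPM.

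The collagens differed far more between replicates than other genes did. The median residual SD of the tested collagens on the log2(CPM + 1) scale was 0.53 in JTL611, 0.29 in CA1200, 0.53 in JTL621 and 0.34 in CA1199, against 0.18, 0.15, 0.21 and 0.18 over all genes tested. Above the 90th percentile of all genes lay 64% of the tested collagens in JTL611, 53.6% in CA1200, 63.6% in JTL621 and 58.6% in CA1199. The spread was in genes of middle and low level. Among genes with a mean of 5 to 100 CPM, the median SD in JTL611 was 1.23 for 44 collagens and 0.15 for all genes, while at 500 CPM or more it was 0.20 for 28 collagens and 0.16 for all genes. From 5 to 100 CPM these medians were 0.38 and 0.13 in CA1200, 1.15 and 0.19 in JTL621 and 0.68 and 0.16 in CA1199. From 100 to 500 CPM collagens gave 0.37 to 0.65 over the strains, against 0.085 to 0.17 for all genes.

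Among collagens averaging 5 CPM or more, the 6 most variable were col-88, col-73, col-63, dpy-4, dpy-5 and dpy-13, with a residual SD of 1.65, 1.63, 1.58, 1.53, 1.51 and 1.5 averaged over the strains that tested them. The genes dpy-4, dpy-5 and dpy-13 are classical dumpy genes, whose mutants are short and stout. Over 48 libraries dpy-5 had 0.0615, 6.31 and 73.4 CPM as its lowest, median and highest value, and dpy-13 had 0.0536, 5.19 and 84.8 CPM. By contrast col-19 had 1883, 2194 and 3067 CPM.

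Replicates of the same group could differ widely in these genes. In JTL621 at 20 °C dpy-5 had 0.568, 73.4 and 23.4 CPM on auxin, against 11.1, 39.7 and 69.4 CPM on ethanol. In JTL621 after heat shock it had 5.45, 19.9 and 9.79 CPM on auxin, against 6.33, 18.4 and 35.0 CPM on ethanol. The groups overlapped in every pairing. In JTL611 replicate 1 recurred as the lowest: after heat shock dpy-5 had 0.257, 4.81 and 10.0 CPM on auxin against 1.35, 41.4 and 6.83 CPM on ethanol, and at 20 °C 0.268, 11.7 and 3.77 CPM on auxin against 0.352, 31.2 and 12.7 CPM on ethanol.

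The order of replicates 2 and 3 was not the same in all 4 groups. CA1200 had lower values of dpy-5, at 0.0615 to 8.72 CPM over its 12 libraries, and replicate 1 was the highest in 3 of its 4 groups. The other variable collagens moved with it. In JTL611 on ethanol after heat shock dpy-13 had 0.942, 34.8 and 5.3 CPM, dpy-4 had 1.48, 40.8 and 5.64 CPM and col-73 had 1.62, 51.5 and 7.62 CPM, the same order each time. Shape genes of lower level shared it too, as rol-6 had 0, 3.87 and 0.451 CPM and sqt-1 had 0.0673, 5.18 and 0.903 CPM in those libraries.

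**Figure D5:**
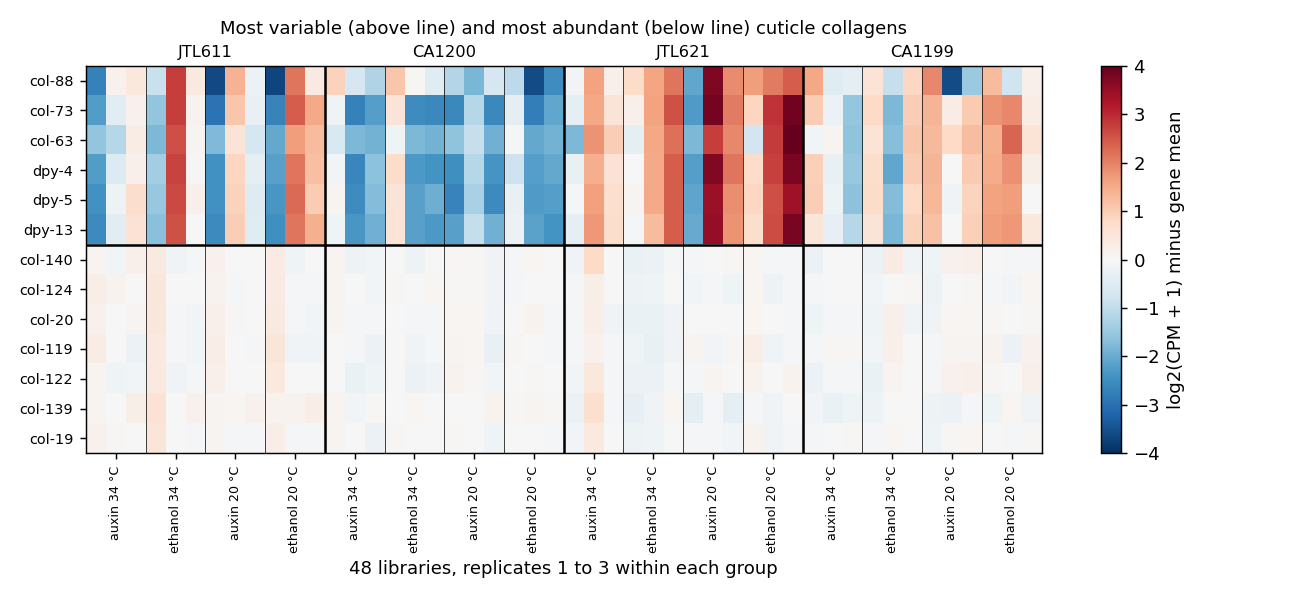
Deviation of log2(CPM + 1) from each gene's mean in 48 libraries, for the 6 most variable collagens (above the line) and for the 6 most abundant per kb and col-19 (below it). The upper genes swing together between replicates of a group, with dpy-5 between 0.0615 and 73.4 CPM, while the lower ones stay near 0.

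The deviations from the group means described this co-movement across the 48 libraries, which share their scaling within a strain. With the deviations of col-88, the most variable collagen, 28 of 94 other collagens tested in every strain correlated above 0.8 (29.8%), and 27 of 11578 other genes did (0.233%). The closest collagens were col-162 (r = 0.95), col-91 (0.95) and col-77 (0.95), and dpy-5, dpy-13 and dpy-4 gave 0.85, 0.85 and 0.83. At the other end 31 collagens were below 0, among them the abundant col-80 (-0.57), col-119 (-0.51), col-124 (-0.45) and col-19 (-0.33). The median over collagens was 0.67, against -0.04 over the other genes. The genes outside the collagens with the highest values were grd-6 (0.96), Y47D7A.15 (0.96) and Y47D7A.13 (0.94), and of the pathway genes below cut-4, a cuticlin, gave 0.75, nlp-34 0.71, hmit-1.1 0.71 and mlt-7, a peroxidase, 0.69. These were the highest of the pathway genes, and other members of the same lists went the other way. Among them gst-4 gave -0.53, dpy-11 -0.45, phy-2 -0.29 and cutl-10 -0.22. Of the intestine markers ifb-2 gave 0.72, ges-1 0.71, elt-2 0.57 and act-5 0.32, while the epidermal markers lin-26, elt-1, elt-3, sta-2 and mup-4 gave -0.003, -0.02, 0.12, 0.15 and 0.40.

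Of 10 listed genes that process and cross-link the collagens, between 1 and 5 were called lower after heat by the limma fit. There was 1 in JTL611, 3 in CA1200, 3 in JTL621 and 5 in CA1199 on ethanol, and 1, 3, 4 and 3 on auxin in the same order of strains; none was called higher. Over all genes tested the shares called lower were 4.17%, 7.51%, 7.43% and 14.4% on ethanol and 5.4%, 9.86%, 11.3% and 12.5% on auxin, in that order. The gene dpy-31, which encodes a procollagen C-proteinase, fell in all 8 comparisons, to 10.7 CPM after heat shock against 17.7 CPM at 20 °C in JTL611 on ethanol (adjusted p = 0.0060) and to 12.3 CPM against 19.5 CPM on auxin (adjusted p = 0.010). The gene bli-3, the dual oxidase that drives tyrosine cross-linking, fell in CA1200, JTL621 and CA1199 on both plates, and phy-2, a prolyl 4-hydroxylase subunit, fell in 5 comparisons. The list's median log2 fold change was -0.20 in JTL611, -0.17 in CA1200, -0.25 in JTL621 and -0.34 in CA1199 on ethanol, against at most 0.01 in size over all genes.

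Among other proteins of the cuticle (cuticlins, noah-1, noah-2 and fbn-1), 2 of 12 tested were called lower in JTL611, 1 of 9 in CA1200, 3 of 14 in JTL621 and 5 of 13 in CA1199 on ethanol, and 2, 2, 7 and 6 on auxin in that order of strains; none was called higher. The shares of all genes called lower are those given for the processing genes. The gene noah-1, an apical matrix component, fell in all 8 comparisons, with 2.03 CPM after heat shock against 4.96 CPM at 20 °C in JTL611 on ethanol. In the molting list nas-37, a metalloprotease that acts on the old cuticle at molting, fell in all 8, with 14.5 CPM after heat shock against 30.9 CPM at 20 °C in JTL611 on ethanol and 16.5 CPM against 34.8 CPM on auxin. Of the regulators of cuticle genes, grh-1, the Grainyhead factor of the epidermis, rose in all 8 comparisons, with 3.07 CPM after heat shock against 1.19 CPM at 20 °C in JTL611 on auxin. The gene lin-29, a zinc finger factor of the larval to adult switch, fell in JTL621 and CA1199 on both plates. Heat responses of the other genes of the molting and regulator lists are not given here.

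The basement membrane collagen genes let-2 and cle-1 were not called with heat, and emb-9, a type IV collagen made largely by muscle, rose in JTL621 on ethanol and in CA1200 and CA1199 on auxin, with 845 CPM after heat shock against 556 CPM at 20 °C in CA1200 on auxin. Summed body wall muscle markers were at 4087 to 8060 CPM after heat shock against 3293 to 3812 CPM at 20 °C there, and at 4301 to 6355 CPM against 2514 to 3312 CPM in JTL621 on ethanol. In CA1199 on auxin they were at 4231 to 7000 CPM against 2804 to 4021 CPM; their part in the emb-9 values was not tested. Of 8 genes known to be induced when furrow collagens are lost, 0 were called in JTL611 on ethanol, where 2.31% of all genes were called higher and 4.17% lower. On auxin 1, gpdh-1, a glycerol-3-phosphate dehydrogenase, was higher in JTL611 (2.24% of all genes). Their counts with heat in the other strains are not given here. None of the genes of these lists was called for auxin after heat shock in any strain by the limma fit.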

How the data were processed

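RNA-seq values were deposited as 1 table per strain. Per the labels and the values themselves, the authors gave log2 CPM with a prior count of 2 reads, normalised within each strain, so values of different strains were tested only through differences of contrasts. The authors also deposited, per strain, log2 fold changes with likelihood ratio scores and p-values (with FDR) for auxin against ethanol after heat shock. Per the submitters' processing notes, the authors' tools included STAR, featureCounts and edgeR and the builds were WBcel235 and ce11, without versions or the strand setting of the counting.

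CPM was recovered from the log2 values; every recovered value lay within 0.05 of a whole read. Within each strain, genes averaging 1 CPM or more across its 12 libraries were fitted with limma 3.58.1 (R 4.3.3, trended variance) on log2(CPM + 1), with all 4 groups of the strain in the fit, and Benjamini-Hochberg adjustment ran over all genes tested; the threshold was 0.05 and tests were two-sided. Gene positions came from Ensembl release 115 (WBcel235). The interval for col-36 reads is exact at 95% and covers counting error only; 3 reads, used as the floor, were worth 0.127 to 0.478 CPM.

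The alternatives were a replicate block, another pseudocount, no filter, a mean of at least 5 CPM, quantile normalisation, limma-voom on recovered reads, only the libraries compared, and each replicate left out. The labels number replicates without stating a pairing. Deviations of same-numbered libraries correlated above 0.1 in all 3 pairs in 10 of 16 contrasts (heat shock on ethanol in JTL611, CA1200 and JTL621, heat shock on auxin in JTL611, CA1200 and CA1199, auxin after heat shock in CA1200, and auxin at 20 °C in JTL611, CA1200 and JTL621), and blocked counts are given for those where they moved by over 1.5 times. On simulated CA1200 libraries (heat shock on ethanol, 11863 genes), 92% of 2-fold and 99% of 4-fold changes were recovered, with 2.6% of calls false. The changed genes were drawn only from those averaging 5 CPM or more. Recovery was thus not measured for lower genes, among them bli-1 (2.94 CPM) and dpy-17 (3.86 CPM) in CA1200. Recovery was not measured for the collagens separately, or in the other strains. The median residual SD was 0.15 over all genes tested in CA1200. It was 0.29 for the collagens of CA1200 and 0.53 for those of JTL611 and of JTL621. The recovered shares therefore do not apply to the collagens, and an uncalled collagen cannot be read as unchanged.

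Named genes are the collagens called in at least 1 contrast, those with a known role, the 6 most abundant per kb and the 6 most variable with a mean of at least 5 CPM; exceptions are stated where they occur. The collagens and gene lists were chosen with earlier results of these data known.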

Additional observations from a re-analysis of the deposited data

Results flagged for a closer look

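The response of col-36 to auxin differed between heat shock and 20 °C in JTL611. Its interaction of auxin and heat, fitted without the filter on low values, was 1.22 (SE 0.15) on the log2(CPM + 1) scale, with a limma adjusted p of 0.00244. The heated libraries had 1.48, 1.58 and 1.47 CPM on auxin against 0.0673, 0.119 and 0.113 CPM on ethanol, and the unheated ones were at 0 or at most 1 read. In JTL621 the same term was 1.4 (SE 0.20) and was not called, with a limma adjusted p of 0.0876. The gene was picked after its values were seen, and its listing may rest on the heated auxin libraries. These p-values are therefore descriptive. Groups of 3 libraries were not tested for single outlying samples.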

How the results depend on the processing

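Of 585 values of 46 called log2 fold changes of single collagens under the alternatives, 490 kept their call, 95 lost it and 0 changed direction. Counts of called collagens moved more. With the replicate block they were 6 in JTL611 and 21 in CA1200 for heat shock on ethanol, 17 in CA1200, 8 in JTL621 and 12 in CA1199 for heat shock on auxin, and 2 in JTL611 for auxin after heat shock; the block moved no other count by over 1.5 times. Without the filter they were 4 in JTL611 for heat shock on ethanol, 8 in JTL621 for heat shock on auxin, 2 in JTL611 and 1 in JTL621 for auxin after heat shock, and 1 for the interaction in JTL611. With a mean of at least 5 CPM they were 1 in JTL611, 3 in CA1200 and 1 in JTL621 on ethanol, and 2 in JTL621 on auxin. Quantile normalisation gave 8 in CA1200, 8 in JTL621 and 11 in CA1199 on ethanol, and 12 in CA1199 on auxin. Only the libraries compared gave 1 in JTL611, 15 in CA1200 and 20 in JTL621 on ethanol, and 4 in CA1200, 2 in JTL621 and 15 in CA1199 on auxin. With each replicate left out, counts for heat shock on ethanol ran from 2 to 5 in JTL611, 3 to 5 in CA1200, 2 to 3 in JTL621 and 4 to 7 in CA1199. On auxin they ran from 4 to 10 in JTL611, 3 to 14 in CA1200, 3 to 30 in JTL621 and 5 to 13 in CA1199, and for auxin after heat shock in JTL611 from 0 to 1. Filters change which genes are tested and fewer libraries leave fewer degrees of freedom, but the cause of the moved counts was not tested. Shares of all genes called moved with the setting too. With the block 7.66% were called higher in CA1200 on ethanol, against 5.73% without it. Without the filter 2.49% were called higher and 4.22% lower in JTL611 on ethanol, and 6.59% and 11.4% in JTL621 on auxin. A count whose share is not given here shows only that it moved, and is no result about the collagens. Collagens under 1 CPM rest on few reads.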
